A study of Mus musculus with 22 samples.

Results

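Cluster 17 was a group of 115 of 54890 single whole cells from the hypothalamus of mice on Day 5 after icv FGF1 or vehicle, taken as the cells that carry number 17 in the deposited clustering. It was set beside cluster 5 (3814 cells) and cluster 9 (1747 cells), the other clusters of the oligodendrocyte precursor lineage used here. All mice were male, 11 weeks old and ob/ob, a strain that lacks leptin and is obese and diabetic, and each received 1 icv injection of either 3 µg FGF1, a fibroblast growth factor, or vehicle (saline), with vehicle mice pair-fed to FGF1 mice. Day 5 cells came from 6 FGF1 and 6 vehicle mice, 1 library per mouse, in 6 batches that each paired 1 FGF1 with 1 vehicle mouse. Nuclei of other mice were available from Day 1 (3 FGF1 and 3 vehicle) and Day 5 (2 and 2). The mice carried no transgene, and every comparison of treatment shares the ob/ob background.

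Oligodendrocyte precursor cells (OPC) are glial progenitors that carry the receptor for platelet-derived growth factor, Pdgfra, and the NG2 proteoglycan, Cspg4. They can divide in the adult brain, and those that leave the cell cycle pass through a committed stage (COP) with Gpr17, Bmp4 and Enpp6 before they make myelin. Dividing cells switch on replication genes in S phase and, later, genes for chromosome condensation, the spindle and cytokinesis in G2 and M phase.

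Cluster 17 held OPC markers together with the genes of cell division. Pdgfra was detected in 93 of its 115 cells (80.9%) and Cspg4 in 37 (32.2%), close to cluster 5, in which they were found in 75.1% and 35.9% of cells, and unlike cluster 9, with 1.55% and 3.43%. Mki67, a marker of cycling cells, was found in 52 cells of cluster 17 (45.2%) and Top2a, the topoisomerase that untangles chromosomes, in 69 (60.0%), while cluster 5 had 0.341% and 0.210% and cluster 9 0.630% and 0.114%. Median depth was 1444 UMIs per cell in cluster 17, 1242 in cluster 5 and 1881 in cluster 9, so depth does not follow the order of these shares. The label of the cluster as OPC was thus borne by its markers, and its leading genes were those of G2 and M phase.

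The promoters of 4 genes higher in cluster 17 than in cluster 5 are printed here, those of the 3 with the highest ratio and of the common proliferation marker Mki67. Each line gives the 250 bases before the transcription start of a gene in RefSeq (GRCm38.p6), read 5′ to 3′ along the gene. Capitals mark CCAAT boxes (CCAAT or, on the other strand, ATTGG) and the cell cycle homology element (TTTGAA or TTCAAA), both elements known from promoters of G2/M genes.
Ube2c, chr2:164769679-164769928, plus strand: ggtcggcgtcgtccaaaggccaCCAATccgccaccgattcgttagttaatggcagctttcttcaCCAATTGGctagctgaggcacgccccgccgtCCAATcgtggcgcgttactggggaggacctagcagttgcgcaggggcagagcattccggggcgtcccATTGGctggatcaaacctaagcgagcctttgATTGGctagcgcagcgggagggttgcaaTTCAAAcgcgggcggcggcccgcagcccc
Top2a, chr11:99024190-99024439, minus strand: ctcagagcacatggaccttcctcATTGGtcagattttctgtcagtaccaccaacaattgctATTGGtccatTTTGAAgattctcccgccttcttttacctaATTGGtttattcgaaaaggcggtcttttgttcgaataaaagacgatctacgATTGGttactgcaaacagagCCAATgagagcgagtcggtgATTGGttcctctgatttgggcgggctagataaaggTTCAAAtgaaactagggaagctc
Cenpf, chr1:189688087-189688336, minus strand: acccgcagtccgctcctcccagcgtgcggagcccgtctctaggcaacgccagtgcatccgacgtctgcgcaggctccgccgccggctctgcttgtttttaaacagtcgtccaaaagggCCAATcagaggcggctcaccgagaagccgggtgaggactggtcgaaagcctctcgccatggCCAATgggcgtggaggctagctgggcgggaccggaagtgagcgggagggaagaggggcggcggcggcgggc
Mki67, chr7:135716380-135716629, minus strand: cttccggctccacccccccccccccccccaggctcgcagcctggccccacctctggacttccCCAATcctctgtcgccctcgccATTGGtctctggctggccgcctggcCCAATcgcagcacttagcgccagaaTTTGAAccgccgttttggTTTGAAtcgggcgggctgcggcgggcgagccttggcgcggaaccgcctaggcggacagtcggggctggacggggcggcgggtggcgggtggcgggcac
By these letters the Ube2c window held 6 CCAAT boxes, 2 of which share bases in the run CCAATTGG, and 1 TTCAAA that began 29 bases before the start. The Top2a window held 6 boxes and 2 homology elements, that of Mki67 3 and 2, and that of Cenpf 2 boxes and no homology element. Of the 15 leading genes named in the next paragraphs, 14 had a promoter in the RefSeq table, 12 of these (85.7%) held a CCAAT box, 8 (57.1%) held at least 2, and 5 (35.7%) held the homology element, while Birc5 and Nusap1 held neither. Over all 27025 promoters of the same length these shares were 34.5%, 10.5% and 16.3%. The matches describe letters only, and the leading genes had been chosen by their level. For the whole G2/M list the check was void, since only 43 of its 54 genes (79.6%) had a promoter in the table.

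To describe identity without mixing mice, levels were compared within the 5 FGF1 mice that had at least 10 cells of cluster 17 (replicates 7, 28, 6, 21 and 36, with 13 to 33 cells each). Levels are CPM, the UMIs of a gene scaled to a fixed total of the cluster in 1 mouse, and differences between clusters carry no test, because the cells had been clustered on these same genes. Among the 1379 genes found in at least 20% of the cells of cluster 17 or 5, 204 were higher and 165 lower in cluster 17 in every one of the 5 mice, and against cluster 9 the numbers were 388 and 452 of 1823.

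Ube2c, the ubiquitin-conjugating enzyme with which the anaphase-promoting complex marks cyclins for destruction (chr2:164769898-164778822), led the list. Its level in cluster 17 of replicates 7, 28, 6, 21 and 36 was 1238, 662, 1142, 1119 and 896 CPM, while in cluster 5 it was 0 in 4 of the mice and 1.60 CPM in the other one. Top2a (chr11:98992943-99024189) lay at 749, 1067, 959, 1316 and 821 CPM in these mice and at 0 to 14.1 CPM in cluster 5. Every mouse was thus far above its own cluster 5 for both genes, and the groups did not overlap. Mki67 (chr7:135689784-135716361) was at 489, 294, 548, 395 and 523 CPM in cluster 17, at most 7.63 in cluster 5 and at most 5.29 in cluster 9.

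Among the other leading genes, Cenpf, a kinetochore protein (chr1:189640606-189688086), was at 995 ± 285 CPM (SD, n = 5) in cluster 17 and 9.22 ± 6.92 in cluster 5, and Cenpa, the histone H3 of the centromere, at 632 ± 267 and 4.36 ± 4.30. Cks2, a subunit of cyclin-dependent kinases, was at 876 ± 329 against 10.9 ± 5.22 CPM, and Pbk, a mitotic kinase, at 706 ± 256 against 2.15 ± 2.97. Prc1, which bundles microtubules at the spindle midzone, and Birc5, of the chromosomal passenger complex, were at 594 ± 224 and 605 ± 142 CPM, with 2.21 and 3.65 CPM in cluster 5. Cdca3, Racgap1, Nusap1 and Tpx2, genes of mitotic entry, cytokinesis and the spindle, lay between 352 and 568 CPM in cluster 17 and below 5 CPM in cluster 5. Hmgb2, a chromatin protein of proliferating cells, was at 2406 ± 476 CPM against 94.3 ± 16, and Lockd, a noncoding transcript next to Cdkn1b, at 482 ± 140 against 9.60 ± 3.60. Exons of Ube2c, Prc1, Nusap1 and Lockd overlap those of a gene on the opposite strand (Tnnc2, Rccd1, Oip5 and Gm44238), and how reads of such pairs were assigned was not examined.

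Whole lists were higher as well, though less evenly than their leading members. All 54 measured G2/M genes were higher in cluster 17 than in both other clusters on average over the mice, 31 of them in every mouse, with a median log2 ratio of 2.93 over cluster 5 and 3.16 over cluster 9 (on the log2 scale of CPM plus 20). Over all genes these medians were −0.11 and −0.03. The summed level of the G2/M list was 155, 131, 178, 195 and 142 UMIs per 10000 in the 5 mice, against 2.39 to 3.94 in cluster 5 and 1.69 to 2.36 in cluster 9. Thus all 5 mice were more than an order of magnitude above their own cluster 5. Of 39 S-phase genes, 37 were higher than in cluster 5, 10 in every mouse, with a median log2 ratio of 0.76 over cluster 5 and 1.26 over cluster 9. The S-phase list summed to 31.5 ± 8.30 per 10000 against 7.10 ± 1.05 in cluster 5 and 3.55 ± 0.412 in cluster 9. The S-phase gene with the most UMIs was 2810417H13Rik, which encodes a factor bound to the replication clamp PCNA, at 433 ± 192 CPM against 17.6 ± 8.29 in cluster 5. Lig1, the ligase of replication, was at 181 ± 113 against 41.1 ± 7.28 CPM, and Rrm2, a subunit of ribonucleotide reductase, at 112 ± 110 against 6.36 ± 2.30. Pcna itself was at 97.7, 0, 137, 132 and 373 CPM in the 5 mice and at 35.3 to 76.3 in cluster 5, so that 1 mouse lay below its cluster 5.

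Chromatin and tubulin genes that rise in dividing cells had a higher sum than the G2/M or S-phase list, at 207 ± 18.1 UMIs per 10000 in cluster 17, 50.7 ± 1.91 in cluster 5 and 61.3 ± 4.89 in cluster 9, with 20 of 20 higher than in cluster 5 and 16 of them in every mouse. H2afz, a histone H2A variant, was at 4102 ± 672 CPM against 571 ± 53.4 in cluster 5 and 345 ± 39.1 in cluster 9. Cyclin D and cell cycle exit genes were mixed, with 11 of 16 higher than in cluster 5 and 5 in every mouse. Among them Ccnd1 (cyclin D1) was at 676 ± 137 CPM against 559 ± 75.6 in cluster 5 and 11.9 ± 4.83 in cluster 9, Ccnd2 at 263 ± 84.5, 159 ± 43.0 and 33.0 ± 8.20, and Cdkn2d, an inhibitor of CDK4, at 291 ± 124, 52.5 ± 10.0 and 51.8 ± 6.55. Under TMM scaling Ccnd1 was lower than in cluster 5 (502 ± 126 against 593 ± 70.9), while Ccnd2 and Cdkn2d stayed higher on average. Cdkn1a (p21), an inhibitor that p53 induces, was at 97.7, 110, 274, 154 and 149 CPM in cluster 17, above the 15.7 to 46.4 CPM of cluster 5 in every mouse. It was the 1 gene of 8 p53 targets that was higher in every mouse, and the list summed to 5.86 UMIs per 10000 against 3.37.

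**Figure D1:**
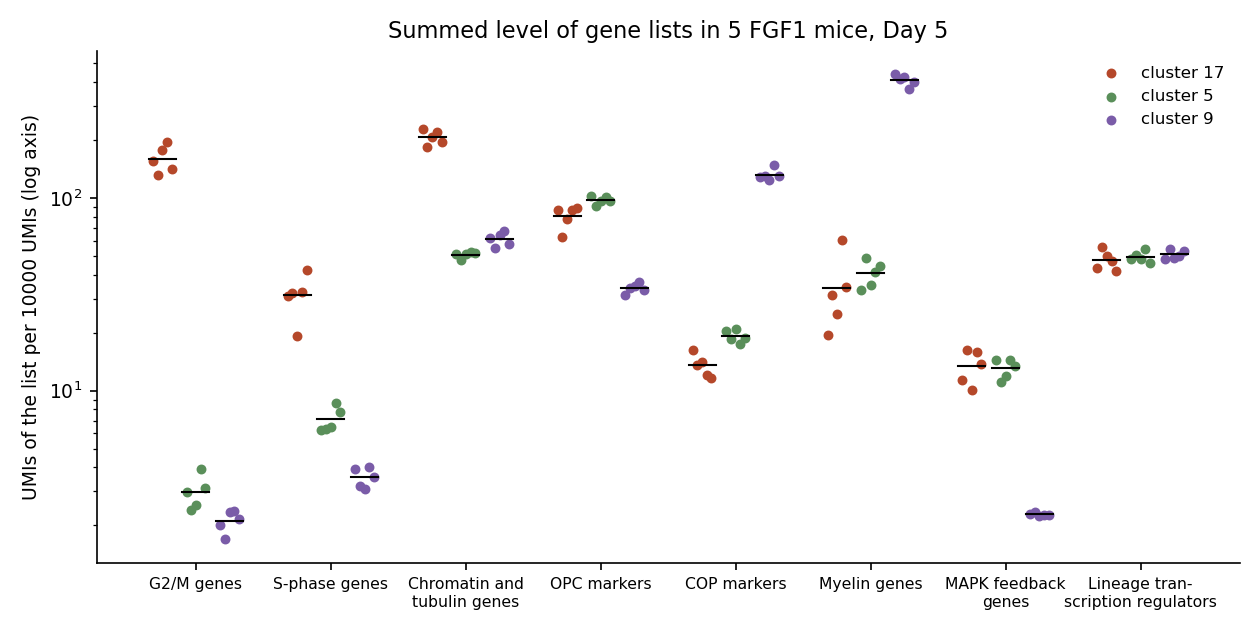
Summed level of 8 gene lists in clusters 17, 5 and 9 of the 5 FGF1 mice with at least 10 cells of cluster 17; the vertical axis is UMIs of the list per 10000 UMIs on a log scale, each point is 1 mouse and each bar the mean. The G2/M list stands at 131 to 195 in cluster 17 and below 4 in the other clusters, OPC markers average 80.7 in cluster 17 and 97.7 in cluster 5, and COP markers and myelin genes are high only in cluster 9 of these 3.

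For the markers Pdgfra and Cspg4, cluster 17 stood close to cluster 5 and far above cluster 9. Pdgfra (chr5:75152292-75198215) was at 1694, 1177, 1051, 1404 and 1120 CPM in cluster 17, at 1107 to 1299 in cluster 5 and at 6.26 to 23.3 in cluster 9. Cspg4 (chr9:56865033-56899870) varied more in the few cells of cluster 17, at 456, 73.6, 91.3, 285 and 411 CPM, around the 267 to 330 CPM of cluster 5 and above the 6.26 to 22.6 of cluster 9. Clusters 17 and 5 overlapped for both genes. Exons of Pdgfra overlap those of the opposite-strand transcripts Gm42802 and Gm42803. The 16 OPC markers summed to 80.7 ± 10.8 UMIs per 10000 in cluster 17, 97.7 ± 4.37 in cluster 5 and 34.1 ± 2.04 in cluster 9. Of the 16, 15 were on average lower than in cluster 5, 5 in every mouse, with a median log2 ratio of −0.43. Of all 14952 genes 9980 were lower, 1192 in every mouse, with a median of −0.11. Under TMM scaling 16 of the 16 markers were lower, 14 in every mouse, against 11904 and 2423 of all genes. Ptprz1, a receptor phosphatase, was at 2047 ± 408 CPM against 2406 ± 241, and C1ql1, a secreted C1q-like protein, at 56.7 ± 42.1 against 222 ± 35.8. The level of a list relative to the total depends on what else is in the cell: scaled by TMM, the factors of cluster 17 were 1.22 to 1.51 and those of cluster 5 were 0.916 to 0.978, the median gene was shifted to −0.26 on the log2 scale, and the OPC list then stood at 59.7 in cluster 17, 104 in cluster 5 and 43.6 in cluster 9, so that its sum was nearer to cluster 9. Pdgfra was then at 954 ± 215 CPM in cluster 17, below the 1282 ± 81.2 of cluster 5 in 5 of 5 mice, and still above cluster 9 in 5 of 5, and Cspg4 was at 197 ± 131, 317 ± 34.6 and 21.4 ± 7.85. The G2/M genes were at 119 against 3.17 in cluster 5.

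Markers of the step after OPC were lower than in cluster 9. Gpr17, a receptor of late precursors, was at 394 ± 153 CPM in cluster 17, 550 ± 25.5 in cluster 5 and 2195 ± 434 in cluster 9, and Bcas1, which marks newly formed oligodendrocytes, at 138 ± 18.8, 249 ± 26.5 and 2061 ± 237. Neu4, a sialidase, was at 133 ± 39.0, 302 ± 37.6 and 592 ± 86.4 CPM. Enpp6 and Bmp4 had no UMI in any of the 115 cells, which allows up to 2.61% of cells with a UMI at this depth and sets no limit on cells that express them, while 68.0% and 47.4% of cluster 9 cells had one. The COP list summed to 13.5 UMIs per 10000 in cluster 17, 19.3 in cluster 5 and 132 in cluster 9, and 12 of its 15 genes were below cluster 9 in every mouse. The 21 myelin genes summed to 34.3, 40.7 and 409 per 10000. Cldn11, Chn2, Sirt2, Tmem108, Frmd4a, Tubb4a and Pdcd4 were among the genes furthest below cluster 9, at 18.3 to 236 CPM against 852 to 6206.

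In CPM, regulators of the lineage differed one by one rather than together, with sums of 47.6, 49.6 and 51.0 UMIs per 10000 in clusters 17, 5 and 9. Under TMM scaling the sums were 35.1, 52.7 and 65.1. Then 23 of 24 regulators were lower than in cluster 5, 8 in every mouse, with a median log2 ratio of −0.42 against −0.26 over all genes. Sox11, a factor of progenitors, was at 295 ± 130 CPM in cluster 17, 155 ± 40.3 in cluster 5 and 40.7 ± 9.14 in cluster 9, and Tcf4, a partner of Olig2, at 942 ± 281, 664 ± 47.5 and 573 ± 107, both above cluster 5 in 5 of 5 mice, though under TMM scaling Tcf4 was lower than in cluster 5 (689 against 705) and in cluster 9 (730.4). Notch1, a receptor that holds precursors undifferentiated, was at 193 ± 96.1, 92.5 ± 21.1 and 23.2 ± 5.84 CPM. Olig1 went the other way, at 781 ± 172 against 1258 ± 104 CPM in cluster 5, lower in 5 of 5 mice. Feedback genes of the MAPK pathway, which FGF and PDGF receptors feed, stood at 13.4 per 10000 in cluster 17 and 13.1 in cluster 5, far above the 2.29 of cluster 9, with Etv5 at 192, 200 and 7.76 CPM and Spry2 at 140, 136 and 9.91 CPM (107 and 144 in clusters 17 and 5 under TMM). Under TMM scaling the MAPK sum was lower in cluster 17 than in cluster 5 (10.0 against 13.9). The cholesterol synthesis genes changed direction likewise (14.3 against 10.7, and 10.5 against 11.3 under TMM). So did the mean of the immediate early genes (26.8 ± 18.4 against 19.1, and 19.9 against 20.3 under TMM). Their CPM sum in cluster 17 was 58.5 per 10000 in replicate 28 and 10.1 to 22.4 in the other mice. Growth factor receptors summed to 26.2 and 27.4 and ribosomal protein genes to 1063 and 1132 per 10000 in clusters 17 and 5.

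The 10 genes furthest below cluster 5 in every mouse were Timm8b (mitochondrial import), C1ql1, Phldb1, Rab31 (a small GTPase of vesicle traffic), Mageh1, Snx1 (endosomal sorting), Kank1, Ap2a1 (a subunit of the clathrin adaptor), Grin3a (an NMDA receptor subunit) and Kcnip3. They lay at 43.6 to 171 CPM in cluster 17 and at 151 to 372 CPM in cluster 5, with Timm8b at 86.5 ± 61.8 against 304 ± 14.04.

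Single cells were then examined one at a time. Every one of the 115 cells held at least 2 UMIs of the G2/M list, with a median of 22 and a range of 2 to 141, while the median in clusters 5 and 9 was 0. At least 2 UMIs of the S-phase list were found in 77 cells (67.0%, exact 95% binomial interval 57.6 to 75.4%, which like all intervals here covers counting error only), and the other 38 cells had 1 or none, among them 23 without any S-phase UMI. After each cell was thinned to 1000 UMIs, which left out 25 shallower cells, 87 of 90 (96.7%) kept 2 G2/M UMIs and 52 (57.8%) 2 S-phase UMIs, with 3 cells that reached 2 for S-phase genes but not for G2/M genes. In cluster 5 these shares were 2.50% and 10.8% of 2844 cells, and in cluster 9 1.89% and 5.21% of 1535 cells. The share with S-phase UMIs was 61.1, 77.8, 46.7, 60.6 and 92.3% in replicates 7, 28, 6, 21 and 36.

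The 77 cells with at least 2 UMIs of both lists and the 38 with fewer S-phase UMIs held OPC markers at like levels, at 81.8 and 80.1 UMIs per 10000, and Pdgfra was found in 79.2% and 84.2% of them. Top2a, which cells begin to make in S phase, was found in 74.0% of the first group and 31.6% of the second. As the groups were drawn from lists that hold such genes, these shares are a description.

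**Figure D2:**
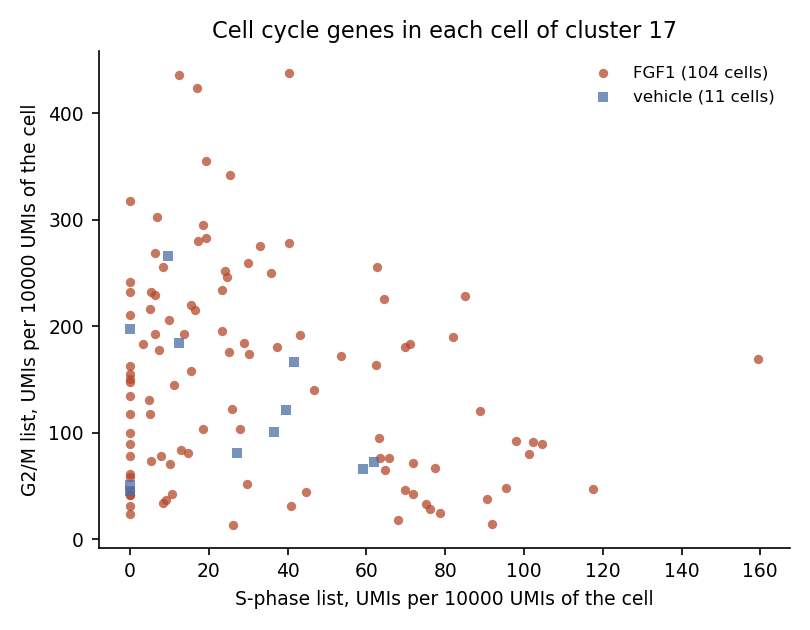
UMIs of the S-phase list (horizontal axis) and of the G2/M list (vertical axis) per 10000 UMIs of a cell, for each of the 115 cells of cluster 17; circles are the 104 FGF1 cells and squares the 11 vehicle cells. No cell lies at 0 on the G2/M axis, cells with G2/M UMIs alone line the left edge, and vehicle cells lie among FGF1 cells.

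At least 3 UMIs of the OPC list were found in 108 of the 115 cells, with a median of 12, as in cluster 5 (median 12, 3795 of 3814 cells). A few cells carried other lineages. At least 3 UMIs of the endothelial list were found in 5 cells, of the pericyte list in 2 and of the microglia list in 4, together 9 cells, and 1 cell of FGF1 replicate 10 held 53 endothelial, 27 pericyte and 27 OPC UMIs. Pooled over all cells, endothelial markers were at 4.53 UMIs per 10000 in cluster 17 and 0.775 in cluster 5, against 98.0 in the cluster where they were highest, whereas over the 5 mice above they were at 1.09 and 0.735. Microglia markers stood at 2.47 and 1.98, and astrocyte markers at 21.0 and 29.4. All 5 genes of the meningeal fibroblast list and 5 of 6 macrophage genes had no UMI. Of the 115 barcodes, 9 also occurred in another library, as did 3616 of all 54890. Mitochondrial UMIs made up a median of 8.53% in cluster 17, 10.6% in cluster 5 and 7.74% in cluster 9.

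The cells of cluster 17 were unevenly divided between treatments, 104 from FGF1 and 11 from vehicle mice. This excess was known when the cluster was chosen for description, so the test that follows takes the mouse as its unit but is no independent support. Batches 1 to 6 gave 18, 18, 15, 33, 7 and 13 cells in FGF1 mice and 3, 2, 2, 0, 1 and 3 in vehicle mice. As a share of clusters 5, 9 and 17, this was 3.75, 2.98, 3.09, 6.13, 2.58 and 1.90% after FGF1 and 1.2, 0.794, 0.375, 0, 0.366 and 0.408% after vehicle, where the count of 0 allows a share of up to 0.527%. Every FGF1 mouse was above every vehicle mouse. The means were 3.41 ± 1.47% and 0.524 ± 0.416% (SD, n = 6 each), a ratio of 6.50, with an exact two-sided permutation p = 0.0021645, the smallest that 924 splits allow. Of all cells of a mouse the cluster made up 0.495 ± 0.377% and 0.0504 ± 0.0395%, a ratio of 9.82 with the same exact permutation p, and p = 0.0021645 after adjustment over both tests. Within batches the FGF1 mouse was higher in 6 of 6 (exact permutation p = 0.03125, the smallest possible).

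The difference was also found without the cells of mixed markers. Without the cells that had fewer than 3 OPC UMIs or at least 3 UMIs of the endothelial, pericyte or microglia lists, an exclusion chosen after the data were seen, 99 cells were left and the differences were 2.47 and 0.383 percentage points, with an exact permutation p = 0.0021645 each. These are cells of the same cluster, whose excess was known, and this p is again the smallest possible, so it is no independent support. Leaving out FGF1 replicate 21, the mouse with 33 cells, gave 2.34 and 0.309 percentage points against 2.88 and 0.444. Cluster 5 held a mean of 5.72% of the cells of FGF1 mice and 8.59% of those of vehicle mice, and cluster 9 7.17% and 0.6254%, so the denominators also moved. As a share of clusters 5 and 17 alone, cluster 17 made up 7.73% and 0.564%.

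**Figure D3:**
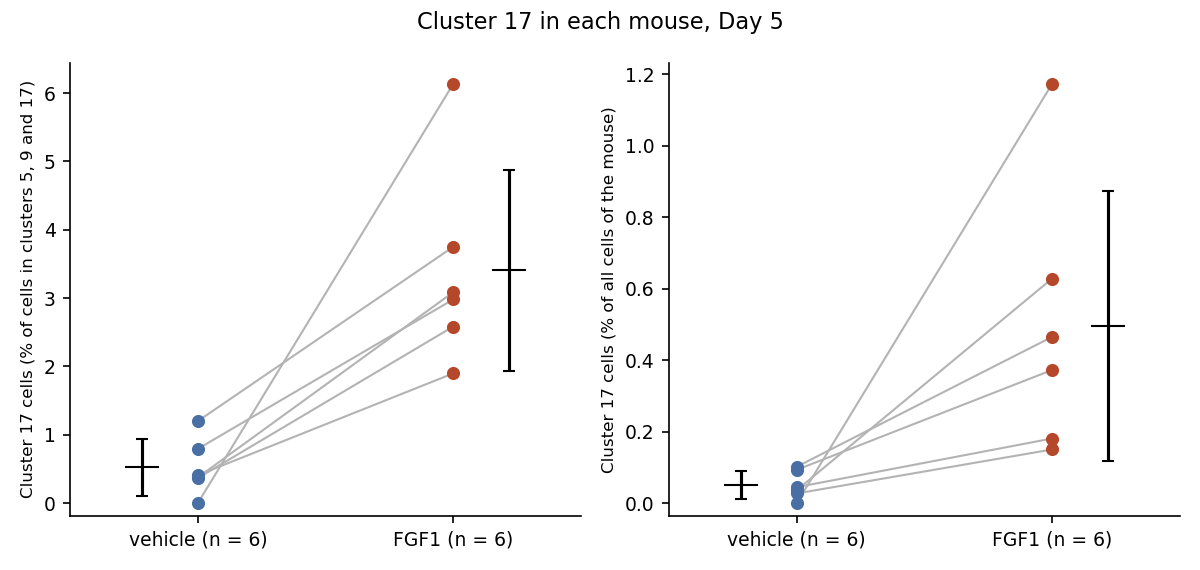
Cluster 17 as a percentage of the cells of clusters 5, 9 and 17 (left) and of all cells (right) in each of 6 vehicle and 6 FGF1 mice on Day 5; points are mice, grey lines join the mice of 1 batch, and black bars give mean and SD. Each line rises, and the highest FGF1 mouse, at 6.13% and 1.17%, is joined to the vehicle mouse without a cell of the cluster.

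The 11 vehicle cells were too few for a test within the cluster, since no vehicle mouse had 10, so pooled levels are given as a description. Their exact Poisson intervals cover counting error only and are too narrow, since UMIs of 1 cell are not independent. OPC markers stood at 81.2 UMIs per 10000 (77.1 to 85.5) in FGF1 and 82.1 (70.4 to 95.3) in vehicle cells. G2/M genes stood at 156 (150 to 162) and 140 (125 to 157), and S-phase genes at 33.5 (30.9 to 36.4) and 25.5 (19.1 to 33.3). As sums, the G2/M and S-phase lists were thus present in vehicle cells too, but the leading genes were not evenly so. In clusters 5 and 17 of vehicle mice, UMIs of Ube2c and Top2a came from replicate 22 only, which held 2 cells of cluster 17. Ube2c was at 987 CPM (846 to 1144) in FGF1 and 236 (76.6 to 551) in vehicle cells, and Pbk at 648 (535 to 778) against 0 of 21190 UMIs (0 to 174). Both genes had been named by their level in cluster 17 of FGF1 mice, a choice that favours FGF1 cells here. Hmgb2 was at 2244 (2029 to 2476) against 3728 (2952 to 4646) and Anp32e, a histone chaperone, at 412 (323 to 517) against 1038 (651 to 1572). Only 335 of the 16304 genes in the whole-cell data were compared in this way, list members and named genes. Some of them had been named by their level in FGF1 mice, and a share over all genes was not counted. The intervals were apart in 13 of the 335, 9 higher in FGF1 cells and 4 in vehicle cells, and in 3 lists. These were the COP list at 13.1 (11.5 to 14.9) and 6.61 (3.61 to 11.1) per 10000, the myelin list at 35.9 (33.1 to 38.8) and 19.8 (14.3 to 26.8), and the immediate early genes at 27.5 (25.1 to 30.01) and 11.8 (7.64 to 17.4). Among FGF1 mice with at least 10 cells, single mice differed widely. The myelin list was at 60.8 in replicate 21 and at 19.5 to 34.7 in the others. Immediate early genes were at 58.5 in replicate 28, 10.1 in replicate 7 and 21.3 to 22.4 in the others.

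To compare treatments without regard to the line between clusters 5 and 17, the UMIs of clusters 5 and 17 were summed per mouse (195407 to 910661 UMIs) and tested across all genes with edgeR. In such sums a larger number of dividing cells and more division RNA per cell cannot be told apart. Of 5529 genes tested, 179 (3.24%) were called at an FDR below 0.05, 94 higher (1.70%) and 85 lower (1.54%) after FGF1. The count was 101 without FGF1 replicate 7, 291 without FGF1 replicate 28, 119, 105, 360 and 105 without vehicle replicates 22, 20, 35 and 25, in that order. The largest increases were those of Ube2c, Top2a, Cenpf, Cks2 and Smc4. Top2a was at 39.7 CPM in the lowest, 98.9 in the median and 264 in the highest FGF1 mouse, and at 0 in 5 vehicle mice and 12.995 in the other one (log2 fold change 5.16 ± 0.87 SE, edgeR FDR = 0.0108). Ube2c was at 41.4, 105 and 214 CPM after FGF1 and at 0 in 5 vehicle mice and 8.12 in the other one (5.69 ± 0.75, edgeR FDR = 0.0022). Neither gene overlapped between the groups, and in both the highest FGF1 mouse was replicate 21 and the vehicle mouse with UMIs replicate 22. Without replicate 22 the Top2a call was lost (edgeR FDR = 0.0717) at a fitted log2 fold change of 8.36, with no vehicle UMI left. The cause was not tested. Smc4, of the condensin complex, was at 59.8 ± 29.0 against 12.1 ± 7.26 CPM (2.38 ± 0.34, edgeR FDR = 3.35e-05). Cks2 and Cenpf, at 105 ± 67.9 and 120 ± 66.4 CPM after FGF1 and 14.3 ± 11.1 and 12.5 ± 11.1 after vehicle, were near the threshold (edgeR FDR = 0.0199 and 0.0182), and Cenpf lost its call without vehicle replicate 25 and Cks2 without FGF1 replicate 7 or vehicle replicate 20, 22 or 25 (edgeR FDR = 0.0522 to 0.0649). Of the 178 FGF1 UMIs of Ube2c, 175 lay in cluster 17. Ube2c and Top2a passed the filter on low counts through the FGF1 mice, and their calls, like those of other genes that define cluster 17, restate its known excess of FGF1 cells and are no independent support for it.

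Most G2/M genes were too rare to pass the filter on low counts, and those that passed did so through the FGF1 mice, so the lists were also fitted without a filter, where each member entered. Of 54 G2/M genes 35 (64.8%) were then called higher and none lower, against 1.37% of all 15267 genes called higher, 53 had a positive estimate (7024 of all genes), and 46 were higher at an unadjusted p below 0.05 (927 of all genes). The median log2 fold change was 2.85, and 2.95 when the 6 genes without a vehicle UMI entered at their bound, against −0.04 over all genes. The list held 3323 UMIs in FGF1 and 869 in vehicle mice. As G2/M genes define cluster 17 and most of its cells were known to come from FGF1 mice, these counts restate that excess and are no independent support for it. Pbk, with 120 and 0 UMIs, was at least 65.4-fold higher against 3 counts over the group, yet missed the threshold (edgeR FDR = 0.169). Of 39 S-phase genes 15 were called higher. In the filtered fit H2afz rose by a log2 fold change of 1.01 ± 0.12 (edgeR FDR = 4.46e-07), from 513 ± 80.2 to 1037 ± 203 CPM, and Tuba1b, a tubulin, by 0.74 ± 0.14 (edgeR FDR = 8.66e-04). Of the chromatin and tubulin list, 10 of 19 tested genes were called higher in this fit, and 1 of 17 in the filtered fit of cluster 5 alone. Most S-phase, chromatin and tubulin genes were higher in cluster 17 than in cluster 5. Calls among them in the sum are thus no independent support for the excess either.

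Neither Pdgfra nor Cspg4 passed the test. Pdgfra was at 1193, 1360 and 1505 CPM in the lowest, median and highest FGF1 mouse and at 1109, 1184 and 1384 in vehicle mice, which overlapped (0.17 ± 0.10, edgeR FDR = 0.42). Cspg4 was at 326 ± 30.8 and 404 ± 47.9 CPM (−0.31 ± 0.12, edgeR FDR = 0.13). Of 16 OPC markers 2 were called lower, C1ql1 (225 ± 30.6 against 368 ± 59.2 CPM) and Susd5 (118 ± 21.3 against 173 ± 13.7), and none higher (12.5% lower, against 1.54% of all genes tested), with a median of −0.10 against 0.00 over all genes tested. Olig2, the lineage factor, and Neu4 were also lower, by −0.48 and −0.50 on the log2 scale (edgeR FDR = 0.0077 and 0.0142). Against 1.70% of all genes called higher, 4 of the 10 tested cyclin D and cell cycle exit genes were, Ccnd1 (641 ± 85.5 against 439 ± 83.6 CPM), Ccnd2, Cdk4 and Cdkn2d, and of 9 immediate early genes 2, Fos and Egr1, were. No tested receptor, MAPK feedback, cholesterol or myelin gene was called. The largest decreases were those of Adam11, Tspyl2, Etnppl, Extl1 and Col11a2, with log2 fold changes of −1.31 to −1.14. Microglia markers were positive in 4 of 4 tested genes, with a median of 0.87 and none called, neuron markers were negative in 5 of 5 with Snap25 called, and their part in the other results was not tested.

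In cluster 5 alone, without any cell of cluster 17, the G2/M list summed to 2.39 to 3.94 UMIs per 10000 in FGF1 mice (median 3.05) and 1.30 to 2.11 in vehicle mice (median 1.73), and at least 3 G2/M UMIs were found in 0.877 to 4.44% of cells (median 2.87) against 0 to 1.04% (median 0.690). The sums did not overlap between groups, but their size was small beside that of clusters 5 and 17 together, at 8.86 to 37.6 (median 15.9) and 1.45 to 3.81 (median 2.72). Cluster 9 was at 1.69 to 2.36 after FGF1 and 0.380 to 3.12 after vehicle. The sum of all clusters other than 5, 9 and 17 did not overlap either, at 1.91 to 5.73 (median 2.00) and 1.499 to 1.86 (median 1.58), so a higher G2/M level after FGF1 was not particular to cluster 5. In edgeR on cluster 5 alone, without a filter, 4 of 47 G2/M genes (Top2a, Cenpe, Smc4 and Ckap2) and 2 of 39 S-phase genes (Clspn and 2810417H13Rik) were called higher, against 0.651% of 15215 genes. The filtered fit called 125 of 5235 genes (2.39%), 63 higher (1.2%) and 62 lower (1.18%). Ccnd1 was as different there (0.55 ± 0.12, edgeR FDR = 0.0097) as in the sum with cluster 17, and C1ql1, Susd5, Neu4, Olig2, Fos and Egr1 were called there too, in the same direction, whereas Hmgb2, called in the sum (1.52 ± 0.22, edgeR FDR = 0.00108), was not (0.32 ± 0.18, edgeR FDR = 0.40). In cluster 9, 52 of 4171 genes (1.25%) were called, 31 higher (0.743%) and 21 lower (0.503%). With cluster 9 added to clusters 5 and 17, whose share differed between the groups, 2774 of 8691 genes (31.9%) were.

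**Figure D4:**
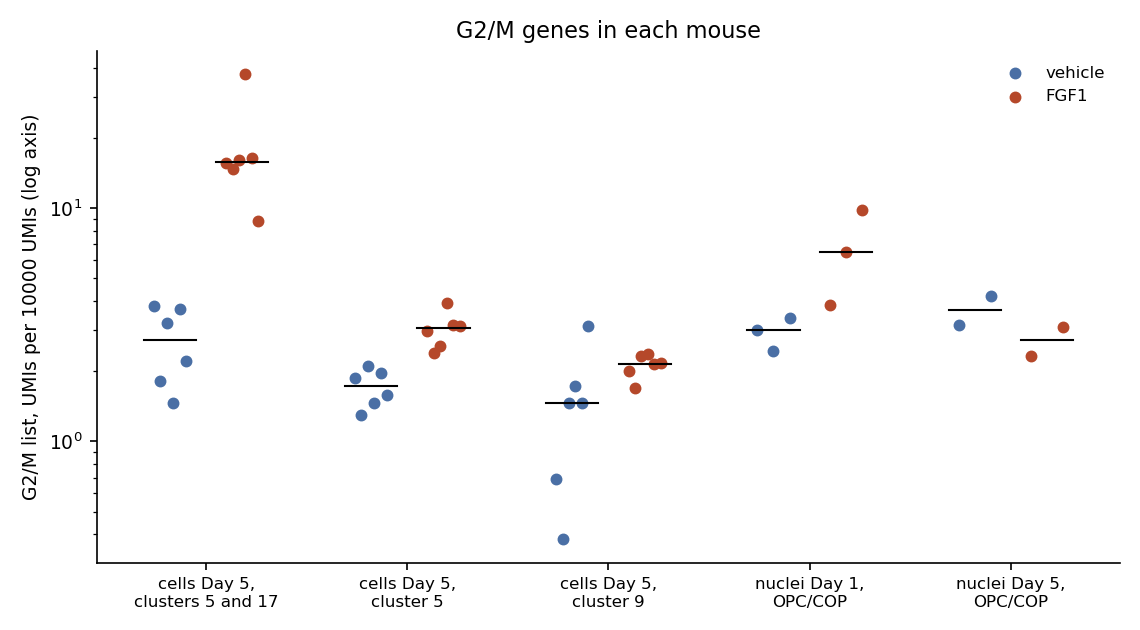
UMIs of the G2/M list per 10000 UMIs (log axis) in each mouse, for Day 5 cells of clusters 5 and 17 together, cluster 5 and cluster 9 and for OPC/COP nuclei of Day 1 and Day 5; points are mice and bars medians. The groups are apart in clusters 5 and 17, in cluster 5 at a lower level and in Day 1 nuclei. In Day 5 nuclei vehicle is the higher group, with the nearest mice at 3.10 and 3.14.

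Nuclei that the deposited annotation calls OPC/COP, 662 of 24965, gave other mice in which these genes could be read, at 73949 to 661563 UMIs per mouse. On Day 1 the G2/M list was at 3.85, 6.47 and 9.87 UMIs per 10000 in FGF1 mice and 3.00, 2.44 and 3.38 in vehicle mice, and the S-phase list at 7.98, 8.24 and 10.0 against 5.27, 4.74 and 4.77. Both sums were higher in each FGF1 mouse than in each vehicle mouse, a separation that 12.4% of the 4485 single genes tested also showed in 1 direction or the other. The share of nuclei with at least 3 G2/M UMIs overlapped, at 16.2, 26.7 and 23.8% after FGF1 and 21.7, 7.41 and 35.7% after vehicle, and Mki67 had 7 and 6 UMIs. Such a share depends on depth, and nuclei were not thinned. In the same order of mice, median UMIs per nucleus were 2711, 4399 and 2678 after FGF1 and 4591.5, 3150.5 and 4425.5 after vehicle. Gene by gene the difference was weak: without a filter 1 of 54 G2/M genes, Top2a (25 and 2 UMIs, edgeR FDR = 0.0488), against 0.166% of 17507 genes called higher, and none of 39 S-phase genes was called, with 15 and 7 higher at an unadjusted p below 0.05, as were 544 of all 17507 genes, and DESeq2 called no G2/M gene. With the filter, 4 of 4485 genes (0.0892%) were called, S100a10, Serpina3n, Zmym1 and Stat3, all higher, and none of the 4 was called with the replicate number or the deposited batch as a block. The count was 21 and 1 without FGF1 replicates 1 and 2 and 0 without vehicle replicate 1, 2 or 3. Stat3, the transcription factor of cytokine signalling, was at 194 to 244 CPM after FGF1 and 27.3 to 66.2 after vehicle (2.17 ± 0.37, edgeR FDR = 0.0393). Pdgfra was at 181, 216 and 293 CPM in the FGF1 mice and 84.0, 126 and 177 in the vehicle mice (0.79 ± 0.34, edgeR FDR = 0.83).

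On Day 5 the 2 FGF1 mice had 2.32 and 3.10 G2/M UMIs per 10000 and the 2 vehicle mice 3.14 and 4.196, so the order seen in whole cells was not present in nuclei of that day, with 69 vehicle nuclei in all. Clusters 5, 9 and 17 of whole cells together were at 5.28 to 13.4 after FGF1 and 1.47 to 3.54 after vehicle. By the paper, whole cells came from a mediobasal section of Janvier mice and nuclei from a hypothalamic punch of Jackson mice. The part of these differences was not tested. None of 46 G2/M genes was called in the Day 5 nuclei by edgeR or DESeq2, and 1 was higher at an unadjusted p below 0.05, as were 702 of all 17662 genes. Of 5767 genes 74 (1.28%) were called, 49 higher (0.85%) and 25 lower (0.434%), 38 in all without FGF1 replicate 45, and these were of another kind: 8 of 13 tested COP genes and 4 of 12 myelin genes were called higher, among them Bcas1 (911 ± 132 against 142 ± 50.8 CPM) and Enpp6 (287 ± 102 against 15.6 ± 3.20). Mag, a myelin glycoprotein, was at 67.0 and 157 CPM against 0 and 5.94, and lost its call without FGF1 replicate 45, which leaves 1 FGF1 mouse. The other largest increases were those of Rhbdl2 (74 UMIs after FGF1 and 0 after vehicle), Cnksr3, Kif19a and Elovl7, the last 3 at 47.4 to 133 CPM against 0 and 13.3 CPM. The largest decreases were those of Gm11273, 2810428I15Rik, Gm26917, Cox6a1 and Cox8a, with log2 fold changes of −4.66 to −3.13, and of these Cox8a overlapped between the groups, at 41.9 and 20.4 CPM against 398 and 39.9. Each of these 9 genes lost its call when 1 mouse was left out, again with a single mouse in 1 group (vehicle replicate 28 for Rhbdl2, Cnksr3, Kif19a, Elovl7, Gm26917, Cox6a1 and Cox8a, also FGF1 replicate 45 for Cnksr3, vehicle replicate 38 for 2810428I15Rik and either FGF1 mouse for Gm11273). Pdgfra was at 27.2 and 109 CPM after FGF1 and 208 and 226 after vehicle, apart but short of the threshold (−1.78 ± 0.47, edgeR FDR = 0.073), and its FDR lay on the other side of the threshold without FGF1 replicate 37 or either vehicle mouse, fits in which 1 group is a single mouse assumed to vary like the other group. The annotation of nuclei holds OPC and COP under 1 name, so shifts between the stages enter these sums.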

How the data were processed

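Whole cells and nuclei of mouse hypothalamus had been profiled by droplet 3′ sequencing (10x, v2 chemistry), 22 samples in all. The deposited values are UMI counts per gene and cell, made by the authors with Cell Ranger 1.2 on GRCm38, and the deposited cell table gives percent mitochondrial and ribosomal UMIs, the batch and 20 Seurat clusters. From the whole-cell set the authors had removed doublets (Scrublet), neurons and subclusters with most cells from 1 sample. For nuclei the paper states that the Scrublet step was left out. No doublet caller was rerun. Cluster 17 and the gene lists were chosen with earlier results of these data known.

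UMI counts were summed per mouse and cluster. Treatment was tested with edgeR 4.0.16 (quasi-likelihood, TMM, default filter on low counts, Benjamini-Hochberg FDR below 0.05) in R 4.3.3, with DESeq2 1.42.0 as an alternative, after a test on simulated data. Shares were tested over mice by exact two-sided permutation. Identity was described in mice with at least 10 cells of cluster 17, as CPM and log2(CPM + 20), a scale that understates changes of low genes. Named genes were the 15 highest and 10 lowest against cluster 5 and 10 each way against cluster 9, by mean log2 ratio among genes of 1 sign in every mouse and found in 20% of cells, up to 4 of the most abundant of each list, the 5 largest called changes in each direction in clusters 5 and 17 and in nuclei, and Pdgfra, Cspg4, Mki67 and Top2a. Others that are named were chosen after their values were seen. Gene positions are from GENCODE vM21. Depth was 2652897 to 11866269 UMIs per whole-cell mouse, and 198559 UMIs in cluster 17. Day 1 replicate numbers did not pair the samples (correlations of −0.16, −0.23 and 0.17). Some genes that the rule selected are not reported here.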

Additional observations from a re-analysis of the deposited data

Results flagged for a closer look

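Of 71 groups of mice examined for a sample that stands apart by Dixon's criterion, 10 had one, and chance gives about 1 in 20 groups. Many of the groups share cells and genes, so they are not independent. FGF1 replicate 21, the mouse with the most cells of cluster 17, stood above the other FGF1 mice in the G2/M sum of clusters 5 and 17 (37.6 UMIs per 10000, next 16.4), in that of clusters 5, 9 and 17 (13.4, next 7.95), and in Smc4 (117 CPM, next 56.9) and Top2a (264 CPM, next 122) of clusters 5 and 17. Vehicle replicate 22 was the vehicle mouse with Top2a (12.995 CPM) and Ube2c (8.12 CPM), the others being at 0, where any single value above 0 meets the criterion. Vehicle replicate 29 stood apart in Cks2 (36.4 CPM, next 12.9), FGF1 replicate 36 in Col11a2 (89.4 CPM, next 60.9), and FGF1 replicate 7 in Cenpa within cluster 17 (1107 CPM, next 548).

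Outside the 3 clusters, FGF1 replicate 6 stood apart with 5.73 G2/M UMIs per 10000, next 2.02. In cluster 8, where microglia markers were highest, 61 of its 286 cells (21.3%) held at least 3 G2/M UMIs, at 21.4 per 10000 against 1.14 to 3.797 in the other mice.

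In OPC/COP nuclei the FGF1 mice lay above every vehicle mouse on Day 1 and below every one on Day 5, in G2/M sums and in Pdgfra. On Day 5 the nearest mice of the groups were at 3.10 (FGF1, 205 UMIs) and 3.14 (vehicle, 60 UMIs) G2/M UMIs per 10000. The other vehicle mouse held 35 such UMIs in 17 nuclei, and the highest Day 1 value, 9.87, came from 21 nuclei. Counting error was not tested. Of all genes tested, 12.4% on Day 1 and 39.8% on Day 5 did not overlap between the groups in 1 direction or the other. The difference of means was 3.79 and −0.959 G2/M UMIs per 10000, and 101 and −149 CPM for Pdgfra. The difference between days was not tested.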

How the results depend on the processing

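The shares of cluster 17 kept their direction and side of the threshold under each alternative run, and without 1 mouse at a time the differences were 0.309 to 0.513 percentage points of all cells and 2.34 to 3.18 of clusters 5, 9 and 17. The excess was known when the cluster was chosen, so these runs are no independent support for it. Median log2 ratios moved with the scale. With 5 CPM added they were 4.10 over cluster 5 and 4.48 over cluster 9 for G2/M genes, 1.90 over cluster 9 for S-phase genes, −0.50 and −3.81 for COP markers, and −1.88 over cluster 9 for myelin genes. Under TMM scaling they were 2.56 and 2.71 for G2/M genes, 0.94 over cluster 9 for S-phase genes, −0.92 and 1.195 for OPC markers, and −0.52 and −3.53 for COP markers. Thinning cells to 1000 UMIs gave 0.94 for S-phase genes over cluster 9. The share of cluster 17 cells with G2/M UMIs was 96.7% after thinning, 100% for at least 1 UMI and 99.1% for at least 3. The causes were not tested.

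In clusters 5 and 17 the number of genes called was 405 without a filter, 101 to 360 without 1 mouse, 160 by DESeq2, 244 with batch as a block, and 2774 with cluster 9 added, where the Pdgfra estimate reversed (−1.06, edgeR FDR = 7.4e-09), a sum in which most FGF1 but few vehicle cells were of cluster 9. In Day 1 nuclei it was 0 with the replicate block, 0 with the deposited batch as a block (chosen after seeing the data), 34 without a filter, 9 by DESeq2, and 0 to 21 without 1 mouse. The replicate numbers did not pair the mice. In Day 5 nuclei it was 30 by DESeq2 and 38 to 101 without 1 mouse, where the lone mouse of a group is assumed to vary like the other group. The 11 vehicle cells, the 21190 UMIs they hold and the 2 mice per group of Day 5 nuclei limit what could be detected.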

Other observations

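Cells rich in division genes were not confined to cluster 17. At least 5 G2/M UMIs were found in 200 of the 54890 cells, of which 103 were in cluster 17, 54 in cluster 8, 13 in cluster 6, 8 each in clusters 5 and 16, and 2 in cluster 9.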
